A study of Mus musculus with 38 samples.

Results

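Long terminal repeats (LTRs) carried 16344 of the 224844 peaks called for RUNX1, Med12 and p300 in lymphoid progenitors before and after Notch stimulation. A peak was counted here when the deposited annotation placed its centre in an LTR element of any family. The number was 2157 of 31995 RUNX1 peaks, 2006 of 30020 Med12 peaks and 2545 of 36182 p300 peaks in lymphoid progenitors (LP). In Phase 1 cells it was 3015 of 38399 RUNX1 peaks, 3021 of 39132 Med12 peaks and 3600 of 49116 p300 peaks. Merging overlapping LTR peaks of the 6 lists gave 5202 separate loci.

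The cells were Cas9-LP, a mouse lymphoid progenitor line derived from fetal liver progenitors that lack Ebf1, the factor that starts the B cell program, and carry a Cas9 knock-in at Rosa26. LP cells grew with SCF, Flt3L and IL-7 on OP9 stroma, which offers no Notch ligand. Phase 1 cells were the same line placed for 2 days on OP9-DLL4, which presents the Notch ligand DLL4. ChIP was done with antibodies against RUNX1, Med12 and p300 on chromatin fixed with disuccinimidyl glutarate and formaldehyde. CTCF and Notch1 lists of the same line were used beside these. So were RUNX1 and Med12 lists from cells of the line that received retroviral guides. The guides were a control against luciferase or targeted Cbfb, Ctcf or Med12. All groups therefore share the Ebf1 deficiency, the Cas9 allele and the line, so that spread between animals is not measured. Each list joins 2 replicates into reproducible peaks, and no value per replicate was available. The lists hold no expression, so the identity of the cells was not checked against marker genes, and they do not give the reads behind a peak. Intervals and tests below count peaks of 1 list per group and cover counting error only, and copies of an element share sequence.

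LTRs flank endogenous retroviruses and hold the retroviral promoter and enhancer. Most copies in the mouse genome are solitary LTRs left by recombination. The ERVL-MaLR family (ORR1 and MT elements) is old and its copies have diverged, ERVK holds many younger elements, and ERV1 and ERVL make up most of the remainder. RUNX1 with its partner CBFβ binds a short DNA string and is required for early T cell development. Med12 belongs to the kinase module of Mediator, which links enhancers to RNA polymerase II, and p300 is a histone acetyltransferase of active enhancers.

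The 4 elements with the most Phase 1 RUNX1 peaks were RLTR45 (ERVK) and ORR1E, MTD and ORR1D2 (all ERVL-MaLR). Stretches of 60 bases around the RUNX string, TGTGGTT or TGCGGTT on either strand, are shown from high-scored Phase 1 RUNX1 peaks that held it. All are on mm10 and were called in both stages with Med12 and p300. They are not always the strongest peaks of an element. The highest Phase 1 RUNX1 score was 316.5 in ORR1E and 296.3 in MTD, against 216.3 and 209.6 for the first copies printed. Capitals mark the RUNX string and, in RLTR45, also the STAT string TTCNNNGAA. The RLTR45 copies are nearly the same from end to end.
RLTR45 copy 1 at chr13:93582540-93582599, minus strand: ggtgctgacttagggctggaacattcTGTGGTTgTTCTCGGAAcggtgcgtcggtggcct
RLTR45 copy 2 at chr12:105744857-105744916, plus strand: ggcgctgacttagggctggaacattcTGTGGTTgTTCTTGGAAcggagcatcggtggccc
RLTR45 copy 3 at chr4:61852248-61852307, minus strand: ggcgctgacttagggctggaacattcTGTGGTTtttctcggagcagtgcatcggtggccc

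RLTR45 copy 1 lay 55123 bases downstream of the start of Bhmt, copy 2 in an intron of Ak7 and copy 3 17151 bases upstream of the start of Mup5. Of 280 Phase 1 RUNX1 peaks in RLTR45, 194 held the RUNX string within 100 bases of the centre. Over the 53 bases beside the string that were compared, a pair of copies agreed at a median of 83.0% of positions, and 190 of the 194 fell in a group joined at 60% identity or more. The stretches of the ERVL-MaLR elements had little in common beyond the string. Their median identity was 26.4% in ORR1E, 26.4% in MTD and 32.1% in ORR1D2.
ORR1E copy 1 at chr5:74404268-74404327, plus strand: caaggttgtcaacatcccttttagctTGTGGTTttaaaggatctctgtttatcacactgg
ORR1E copy 2 at chr14:73290009-73290068, plus strand: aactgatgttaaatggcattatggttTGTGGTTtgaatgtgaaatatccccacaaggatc
MTD copy 1 at chr8:86708071-86708130, minus strand: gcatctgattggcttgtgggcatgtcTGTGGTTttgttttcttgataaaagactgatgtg
MTD copy 2 at chr14:118929905-118929964, minus strand: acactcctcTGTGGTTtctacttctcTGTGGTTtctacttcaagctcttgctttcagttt
ORR1D2 copy 1 at chr16:91789903-91789962, minus strand: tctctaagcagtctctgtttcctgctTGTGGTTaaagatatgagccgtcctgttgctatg
ORR1D2 copy 2 at chr9:116369490-116369549, minus strand: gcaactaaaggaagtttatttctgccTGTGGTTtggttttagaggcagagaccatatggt

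ORR1D2 copy 1 is in an intron of Itsn1, ORR1E copy 1 in an intron of Scfd2 and ORR1E copy 2 in an intron of Rb1. MTD copy 1 is in an intron of Lonp2 and MTD copy 2 held the RUNX string at a pair of places 4470 bases upstream of Dzip1. A wider RLTR45 window of 200 bases shows the PU.1 string GAGGAAGT in capitals as well, 139 bases before the RUNX string, an arrangement counted further below.
RLTR45 window at chr5:56753071-56753270, plus strand: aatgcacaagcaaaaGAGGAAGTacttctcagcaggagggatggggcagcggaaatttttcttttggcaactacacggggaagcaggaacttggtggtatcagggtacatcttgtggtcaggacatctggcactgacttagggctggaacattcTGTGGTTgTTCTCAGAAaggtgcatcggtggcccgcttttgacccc

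Smaller elements carried other arrangements and were picked for display after their values had been seen. In RLTR48A (ERV1) the same RUNX and STAT strings stood side by side in an otherwise different sequence. In RLTR30D2_MM (ERV1) a GATA string, AGATAA, preceded the RUNX string in the first copy shown. In ERVB4_3-LTR_MM the RUNX string is marked. ORR1B1 is shown with its PU.1 string and RMER15 with its AP-1 string, TGACTCA or TGAGTCA.
RLTR48A copy 1 at chr13:33559925-33559984, plus strand: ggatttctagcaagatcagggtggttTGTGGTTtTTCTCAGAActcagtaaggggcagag
RLTR48A copy 2 at chr3:153958093-153958152, minus strand: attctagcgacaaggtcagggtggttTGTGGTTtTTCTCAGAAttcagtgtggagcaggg
RLTR30D2_MM copy 1 at chr12:77134500-77134559, minus strand: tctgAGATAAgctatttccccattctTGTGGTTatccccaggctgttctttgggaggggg
RLTR30D2_MM copy 2 at chr5:121124397-121124456, plus strand: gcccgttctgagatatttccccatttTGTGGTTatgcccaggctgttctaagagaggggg
ERVB4_3-LTR_MM copy 1 at chr2:149283431-149283490, minus strand: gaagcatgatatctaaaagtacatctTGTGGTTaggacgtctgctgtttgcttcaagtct
ERVB4_3-LTR_MM copy 2 at chr2:89921276-89921335, minus strand: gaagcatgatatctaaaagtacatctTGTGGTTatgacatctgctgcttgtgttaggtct
ORR1B1 copy 1 at chr17:35259240-35259299, minus strand: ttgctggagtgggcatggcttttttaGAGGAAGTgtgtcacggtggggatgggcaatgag
ORR1B1 copy 2 at chr8:94365463-94365522, minus strand: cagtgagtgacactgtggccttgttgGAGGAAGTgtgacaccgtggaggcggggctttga
RMER15 copy 1 at chr2:166665794-166665853, plus strand: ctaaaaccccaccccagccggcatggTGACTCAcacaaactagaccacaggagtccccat
RMER15 copy 2 at chr16:20192236-20192295, plus strand: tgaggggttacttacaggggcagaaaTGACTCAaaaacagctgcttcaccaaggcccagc

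The second RMER15 copy, in an intron of Yeats2, is the only Phase 1-specific peak among those printed. The first ORR1B1 copy lay 3827 bases upstream of H2-D1, a class I histocompatibility gene.

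LTR peaks were, without exception in these 6 lists, annotated as intronic or intergenic. This follows from the labelling, since the annotation does not give an LTR to promoter or exon peaks. A promoter or exon peak that lies over an LTR is therefore not counted as an LTR peak here. LTR peaks were compared with the other intronic and intergenic peaks of the same list. LTR peaks made up 10.3% of those RUNX1 peaks in LP (95% Wilson interval 9.86 to 10.7%) and 11.1% in Phase 1 (10.7 to 11.5%). The share was 10.4% and 10.7% for Med12 and 10.3% and 9.66% for p300, in LP and Phase 1 in that order. CTCF, the insulator protein, had 3.96% and 3.94% of its intronic and intergenic peaks in LTRs. LTR peaks were less often intronic than the others, with 32.9 to 35.1% against 53.2 to 54.8% over the 6 lists. Their median distance to the nearest transcription start was 25366 bases in the LP RUNX1 list, against 20257 for the others.

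ERVL-MaLR held 1110 of the 2157 LP RUNX1 LTR peaks (51.5%) and 1589 of the 3015 Phase 1 peaks (52.7%). ERVK held 600 (27.8%) and 829 (27.5%), ERV1 261 and 332, and ERVL 169 and 241. For Med12 the ERVK share was 32.4% in LP and 30.2% in Phase 1, and for p300 it was 30.6% and 26.9%. ERVL-MaLR came first and ERVK second in every list, as the plot of peak numbers by family shows. Across the 6 lists 454 element names occurred, and 29 of them had at least 30 RUNX1 peaks over both stages. These 29 elements, 18 of them ERVL-MaLR, 6 ERVK, 4 ERV1 and 1 ERVL, held 61.7% of the Phase 1 RUNX1 LTR peaks.

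**Figure D1:**
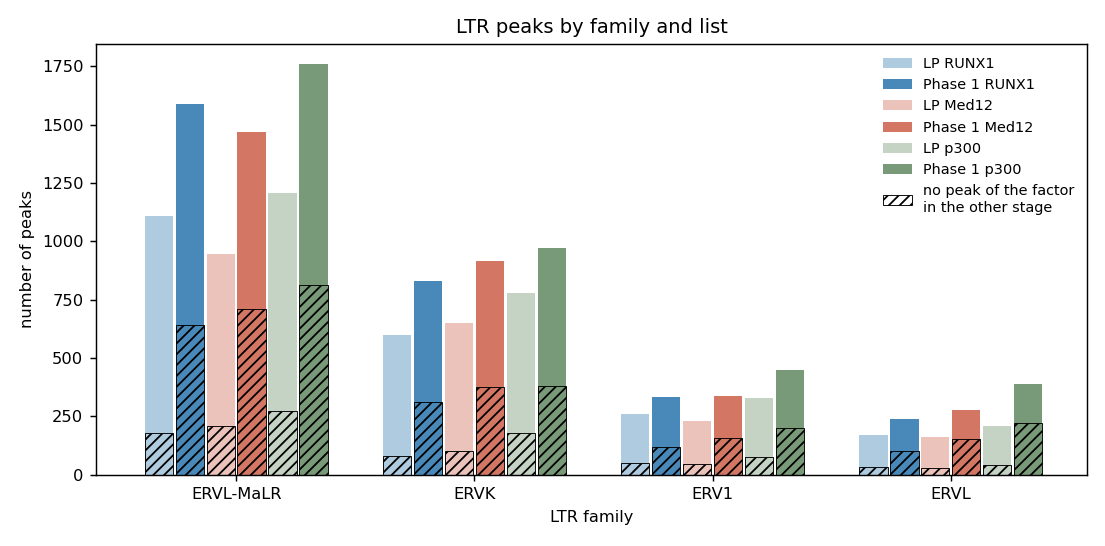
Number of LTR peaks (y axis) by family (x axis) in each of the 6 lists, with light bars for LP and dark bars for Phase 1. The hatched part is the peaks with no peak of the factor in the other stage. ERVL-MaLR has the tallest bar in every list, from 945 peaks (LP Med12) to 1757 (Phase 1 p300).

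LTR peaks of RUNX1 were less often restricted to LP than other intronic and intergenic peaks. A peak was called stage-specific when no peak of the same factor in the other stage overlapped it by at least 1 base. Of the 2157 LP RUNX1 LTR peaks, 350 (16.2%) were LP-specific, against 4062 of 18857 others (21.5%). Over the whole LP RUNX1 list, promoters included, 16.8% were LP-specific. The odds ratio was 0.706 (95% interval 0.626 to 0.795, adjusted p = 1.75e-08, two-sided Fisher's exact test). The call depended on the comparison peaks, since against all other peaks, promoters and exons included, the odds ratio was 0.954 (adjusted p = 0.494, Fisher's exact test). In Phase 1, 1183 of 3015 RUNX1 LTR peaks (39.2%) were Phase 1-specific, against 38.7% of the others and 30.7% of the whole list. That difference did not pass the test (odds ratio 1.03, interval 0.948 to 1.11, adjusted p = 0.663, Fisher's exact test).

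Med12 LTR peaks were less often LP-specific than other intronic and intergenic peaks, but not than the list as a whole. LP-specific peaks made up 389 of 2006 Med12 LTR peaks (19.4%), against 24.2% of the others and 19.5% of the whole list (odds ratio 0.752, adjusted p = 2.78e-06, Fisher's exact test). The odds ratio was 0.994 against all other peaks (adjusted p = 0.930, Fisher's exact test) and 0.931 with lists of equal length (adjusted p = 0.201, Fisher's exact test). In Phase 1, 1405 of 3021 Med12 LTR peaks (46.5%) were specific, against 48.0% of the others and 38.2% of the whole list (odds ratio 0.944, interval 0.875 to 1.02, adjusted p = 0.193, Fisher's exact test). For p300 the LTR peaks were less often specific than other intronic and intergenic peaks in both stages, and more often specific than all other peaks. In LP 578 of 2545 (22.7%) were specific, against 25.2% of the others and 20.7% of the whole list (odds ratio 0.873, adjusted p = 0.0100, Fisher's exact test). In Phase 1 the numbers were 1636 of 3600 (45.4%), against 50.7% of the others and 41.6% of the whole list (odds ratio 0.810, adjusted p = 1.05e-08, Fisher's exact test). Against all other peaks the p300 odds ratios were 1.14 in LP (adjusted p = 0.0123, Fisher's exact test) and 1.19 in Phase 1 (adjusted p = 2.01e-06, Fisher's exact test). The LP share of p300 also turned to 1.07 with lists of equal length and to 1.04 when peaks scored under 30 were left out, both short of the threshold. Against all other peaks the Phase 1 odds ratio was 1.51 for RUNX1 and 1.45 for Med12, and against the other repeats (LINE, SINE and DNA elements) it was 0.742 and 0.665.

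Between families, ERVL-MaLR peaks of Med12 were more often Phase 1-specific than ERVK peaks, at 710 of 1467 (48.4%) against 374 of 914 (40.9%). The odds ratio was 1.35 (1.15 to 1.60, adjusted p = 0.000758, Fisher's exact test). For p300 the shares were 46.3% and 39.3% (odds ratio 1.33, adjusted p = 0.000802, Fisher's exact test). For RUNX1 they were 40.3% and 37.8% (odds ratio 1.12, adjusted p = 0.293, Fisher's exact test). These directions rested on RLTR45. Without its peaks the odds ratio was 0.864 for Med12, 0.945 for p300 and 0.864 for RUNX1, none past the threshold. Among peaks in which at least 90% of the 50-base words occur once in the genome, it was 0.813, 0.801 and 0.823, and the value for p300 passed the threshold in that reversed direction (adjusted p = 0.0456, Fisher's exact test).

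**Figure D2:**
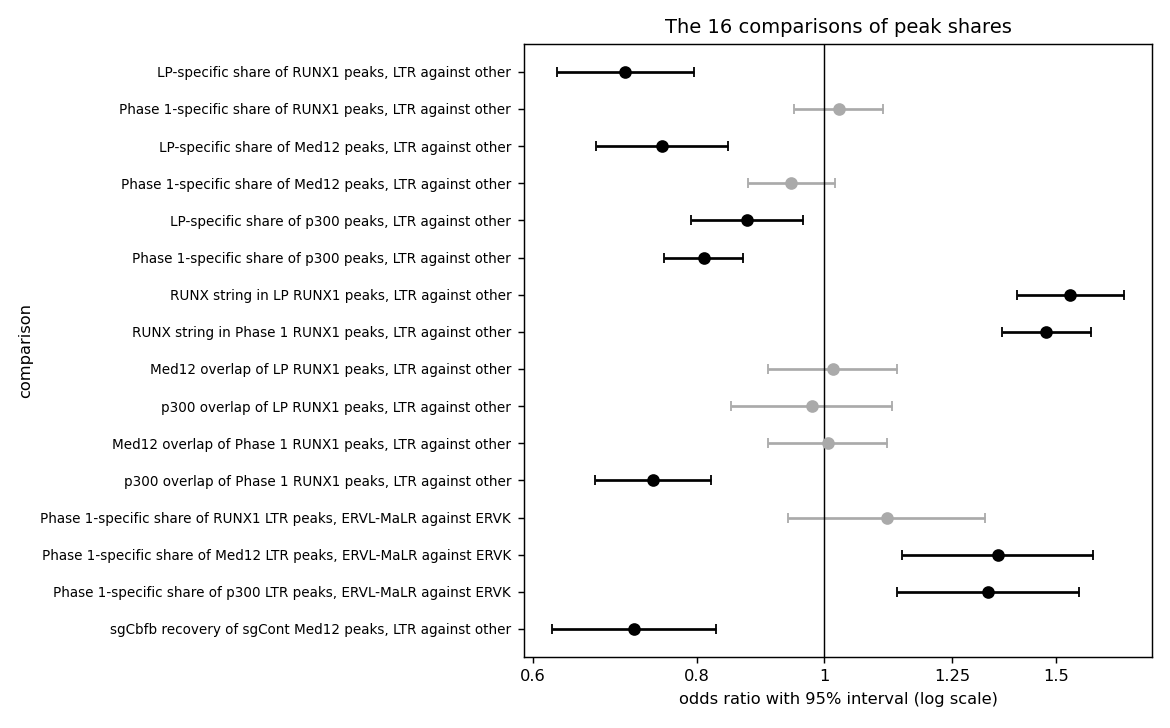
Odds ratios of the 16 comparisons on a log axis, with 95% intervals as horizontal lines and a vertical line at 1; black points had an adjusted p under 0.05 and grey points did not. Both comparisons of the RUNX string lie to the right, at 1.54 and 1.48, and the LP-specific share of RUNX1 lies farthest to the left, at 0.706.

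Of 5202 LTR loci, 2692 (51.75%) had a peak in at least 1 list of each stage, and 1514 (29.1%) had a peak in all 6 lists. Phase 1 lists alone held 1996 (38.4%) and LP lists alone 514 (9.88%). Only LTR peaks were merged into loci, so the same shares outside LTRs were not counted. The combination of RUNX1, Med12 and p300 in Phase 1 with no LP peak occurred at 601 loci, and the reverse, all 3 factors in LP alone, at 130. Among the loci held in a single stage, 1199 had a peak in 1 list alone, 650 of them p300 in Phase 1. The shared peaks met an LTR-annotated partner in 93.5 to 94.96% of cases, so that few pairs joined an LTR peak to a neighbor outside the repeat. The Phase 1 lists are longer, and the excess of Phase 1-specific peaks moved with that length. When each Phase 1 list was shortened to its top-scored peaks, as many as in the LP list, the LTR peaks without a partner numbered 543 in LP and 668 in Phase 1 for RUNX1, instead of 350 and 1183. For Med12 they numbered 656 and 720, and for p300 the order turned, with 997 in LP and 791 in Phase 1. Among the other intronic and intergenic p300 peaks it did not turn, with 8337 and 9372. As shares, p300 had 39.2% in LP and 34.0% in Phase 1 for LTR peaks, against 37.65% and 40.4% for the others. RUNX1 had 25.2% and 28.9%, against 28.6% and 29.5%. Med12 had 32.7% and 34.7%, against 34.3% and 36.8%.

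The stage-specific peaks were the weaker ones in their lists. The median score was 21.1 for LP-specific RUNX1 LTR peaks against 37.8 for those shared, and 22.2 for Phase 1-specific peaks against 48.1. Other intronic and intergenic RUNX1 peaks showed the same order, with 22.3 against 43.4 and 23.2 against 50.6. Of the 1183 Phase 1-specific RUNX1 LTR peaks, 74.0% had Med12 and 73.5% had p300 in Phase 1, and 23.2% already lay under a Med12 or p300 peak in LP. Among the other Phase 1-specific RUNX1 peaks these shares were 76.2%, 81.0% and 19.7%. Of the 350 LP-specific LTR peaks, 61.7% had Med12 and 78.6% had p300 in LP, and 32.9% still lay under a Med12 or p300 peak in Phase 1. Among the other LP-specific RUNX1 peaks they were 61.4%, 75.8% and 31.1%.

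Of the 29 elements, 26 had more peaks in Phase 1 than in LP for RUNX1 and 27 for Med12 and for p300. All intronic and intergenic peaks together were 1.29 times as many in Phase 1 as in LP for RUNX1, 1.46 times for Med12 and 1.51 times for p300, and element ratios are to be read against these. For RUNX1, ORR1E held 224 LP and 270 Phase 1 peaks (ratio 1.21), ORR1D2 141 and 181 (1.28) and MTD 113 and 196 (1.74). MTD had 11 LP-specific RUNX1 peaks (9.73%) and 88 Phase 1-specific (44.9%). ORR1C2, with 21 LP and 43 Phase 1 peaks, had the highest RUNX1 ratio (2.05), and none of its 21 LP peaks was LP-specific (0 of 21, with a Wilson upper bound of 15.5%). RMER4B had the highest ratios for Med12, with 9 and 28 peaks, and for p300, with 13 and 36. RMER15 had 35 p300 peaks in LP and 87 in Phase 1, 58 of them specific (66.7%). RLTR19 (ERVK) stood at the low end for RUNX1, with 22 and 21 peaks, and for Med12, with 19 and 16. These rest on small numbers and were not tested singly.

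**Figure D3:**
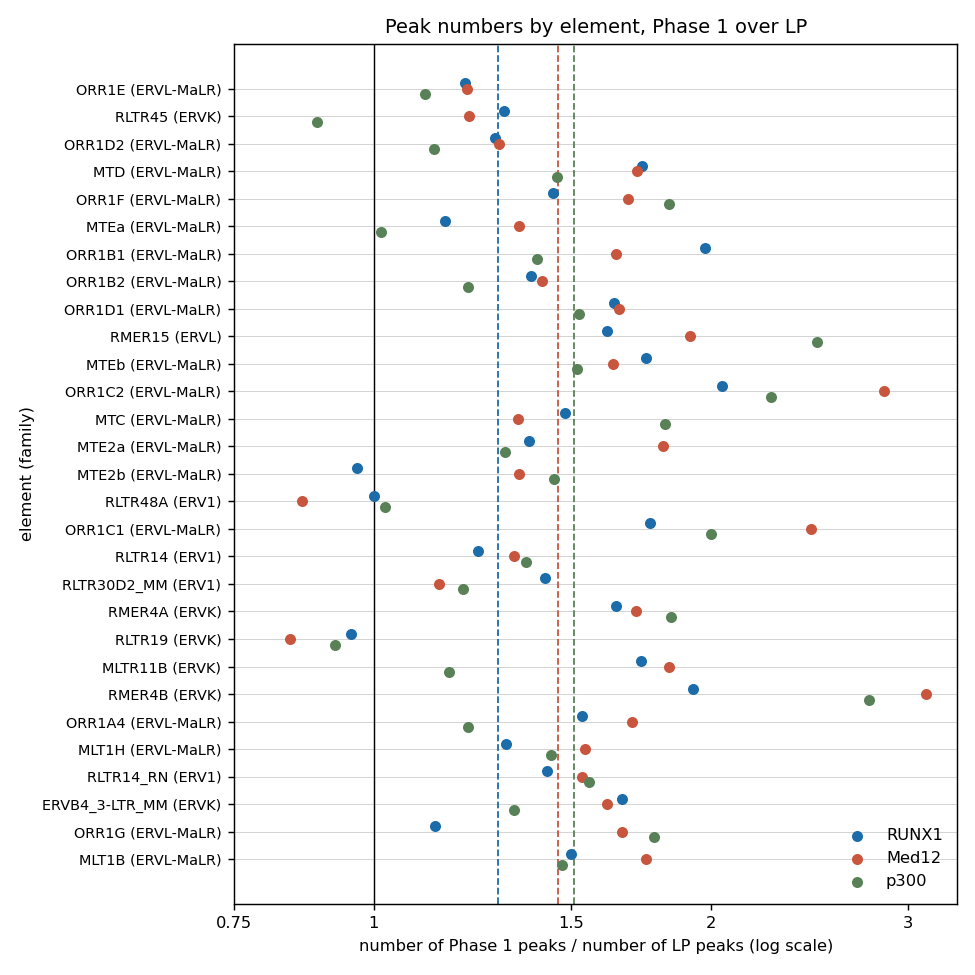
Number of Phase 1 peaks over number of LP peaks (x axis, log scale) for the 29 elements with at least 30 RUNX1 peaks (y axis), with 1 point per factor; a dashed line gives the same ratio for all intronic and intergenic peaks of a factor. RLTR45 has the lowest p300 ratio, 0.889, while its RUNX1 ratio of 1.31 and Med12 ratio of 1.22 lie closer to the references.

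In RLTR45 the peak numbers of p300 went the other way from those of RUNX1 and Med12. RUNX1 had 214 LP and 280 Phase 1 peaks there and Med12 268 and 326, whereas p300 had 244 and 217. Of its RUNX1 peaks 3.27% were LP-specific (7 of 214) and 25.7% Phase 1-specific (72 of 280). Of its p300 peaks 20.1% were LP-specific (49 of 244) and 10.1% Phase 1-specific (22 of 217). In LP 197 of 214 RUNX1 peaks lay under a p300 peak (92.1%, interval 87.7 to 94.98%), and in Phase 1 198 of 280 (70.7%, 65.1 to 75.7%). With Med12 the shares were 95.3% and 94.3%. CTCF met 1 of the 214 and 0 of the 280 RUNX1 peaks, the latter with a Wilson upper bound of 1.35%. RLTR45 was looked at after its values were known, so these shares are descriptions.

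At the RLTR45 peaks shared by both stages, the p300 score was higher in Phase 1 at 59 of 195, with a median log2 ratio (Phase 1 over LP) of -0.33, while the other intronic and intergenic peaks had a median of 0.04. The unit of the normalized score is not stated, so only the difference between sets in the same pair of lists can be read. RLTR48A (26 shared p300 peaks) had a median of -1.10 and RLTR30D2_MM (20) a median of -0.66. For RUNX1, RLTR45 had a median of 0.28 against 0.17 for the others. RLTR48A had -0.47.

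The uniqueness of the sequence limits what a peak in RLTR45 says about a single copy. The median share of 50-base words that occur once in the genome was 68.2% in its LP RUNX1 peaks and 65.7% in Phase 1, against 100% in ORR1E, ORR1D2 and MTD. The submitters kept reads with a few places in the genome and discarded reads with more than a set number, so that reads of like copies cannot be told apart and reads of the most repeated stretches were not counted. Only 9 LP and 15 Phase 1 RUNX1 peaks of RLTR45 reached 90% unique words. Among these p300 overlapped 8 of 9 and 12 of 15, with intervals of 56.5 to 98.0% and 54.8 to 92.9% that do not separate the stages.

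The RUNX string was more frequent in LTR peaks of RUNX1 than in other RUNX1 peaks. It lay within the central 200 bases of 789 of 2157 LP LTR peaks (36.6%) and of 27.3% of the others. The odds ratio was 1.54 (1.40 to 1.69, adjusted p = 4.89e-18, Fisher's exact test). In Phase 1 the shares were 1203 of 3015 (39.9%) and 31.04% (odds ratio 1.48, adjusted p = 6.50e-21, Fisher's exact test). In windows 2000 bases away the string occurred in 5.84% and 6.04% around LTR peaks, and in 5.59% and 5.52% around the others. Compared with LINE, SINE and DNA repeats, the odds ratios were 1.07 in LP and 1.09 in Phase 1 and did not pass the test. The string was in 38.0% of Phase 1-specific LTR peaks and in 41.1% of those shared, and in 24.3% of LP-specific LTR peaks. Among the other LP-specific peaks it was in 14.2%.

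The PU.1 string GAGGAAGT, bound by the ETS factor PU.1 of progenitors and myeloid cells, was in 22.2% of LP RUNX1 LTR peaks and 20.8% of Phase 1 peaks, against 10.5% and 9.25% of the others. The flanks held it in 1.18% and 1.21%. The STAT string TTCNNNGAA was in 13.3% and 12.2% of LTR peaks, against 9.34% and 9.09% of the others. STAT5 carries the signal of IL-7. The AP-1 string was in 8.79% of Phase 1 LTR peaks and 11.2% of the others, and the CTCF string in 0.464% of LP LTR peaks and 2.92% of the others. RBPJ (GTGGGAA), the DNA-binding partner of the Notch intracellular domain, had its string in 4.91% of LP and 6.003% of Phase 1 LTR peaks. The others were close to this, at 4.50% and 5.87%. The STAT string and the interferon-response string GAAANNGAA can overlap, and these shares were not tested.

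Elements differed in the strings they held. In Phase 1 RUNX1 peaks the RUNX string was in 69.3% of RLTR45, 58.0% of ORR1D2, 85.2% of RLTR30D2_MM and 19 of 20 ERVB4_3-LTR_MM peaks, but in 25.6% of ORR1E and 22.7% of ORR1B1. The PU.1 string was frequent in the ORR1B, ORR1C and ORR1A elements. It was in 55 of 75 ORR1B1 peaks (73.3%), 34 of 58 ORR1B2 (58.6%) and 16 of 23 ORR1A4 (69.6%). ORR1C1 had it in 19 of 30 (63.3%) and ORR1C2 in 21 of 43 (48.8%). RLTR45 and ORR1D2 also held it, in 34.6% and 30.4% of peaks. RLTR48A had the STAT string in 23 of 28 peaks. RMER15 and RLTR19 had the AP-1 string in 18 of 42 and 12 of 21, and RLTR30D2_MM and RLTR14_RN the GATA string in 18 of 27 and 11 of 20.

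**Figure D4:**
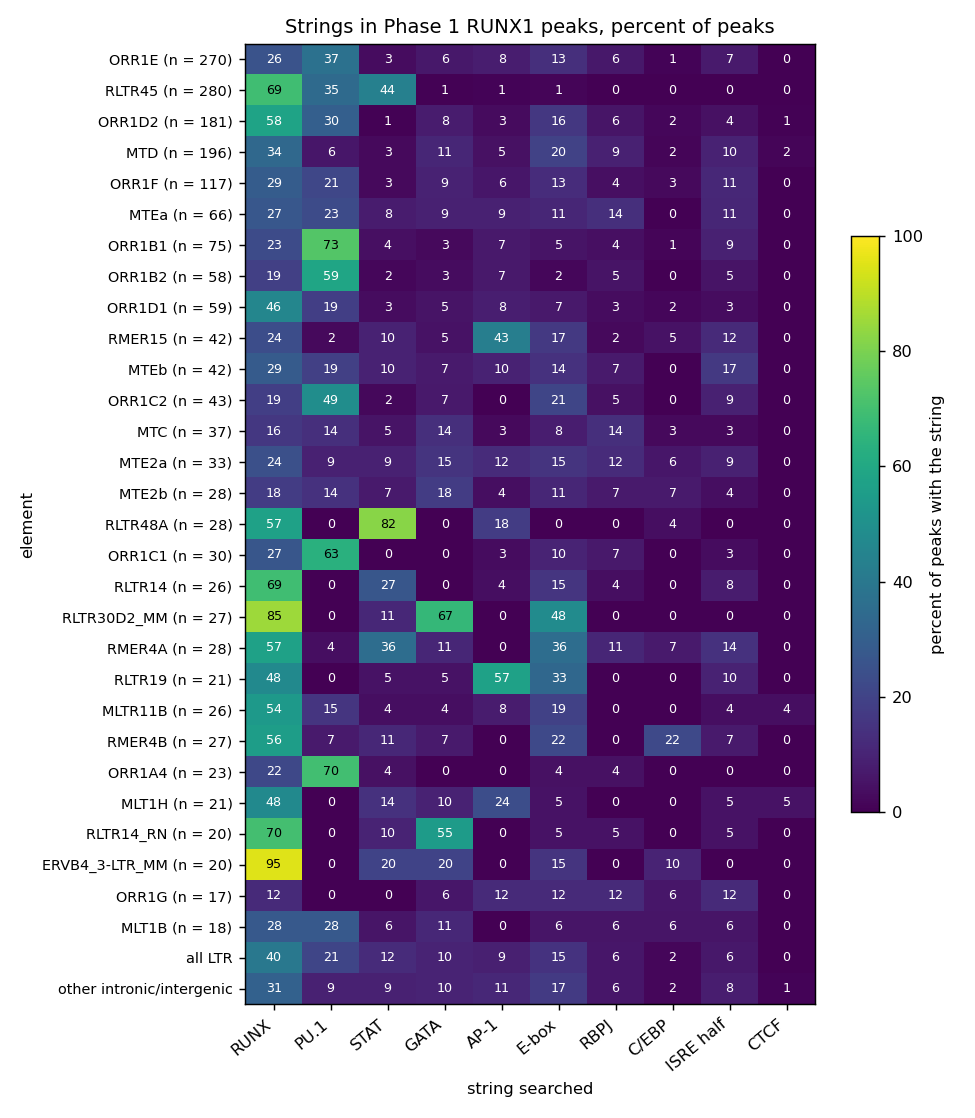
Share of Phase 1 RUNX1 peaks, in percent, that hold each string (x axis) in the 200 bases around the centre, as color and number, for 29 elements, all LTR peaks and the other intronic and intergenic peaks (y axis). The RUNX string is in 69.3% of RLTR45 peaks and the PU.1 string in 73.3% of ORR1B1 peaks.

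Some elements kept a fixed spacing between strings. In 102 of the 103 RLTR45 peaks with both strings, the STAT string began 8 bases after the start of the RUNX string, with 1 base between them, and this was so in 14 of 14 RLTR48A peaks. The PU.1 string of RLTR45 began 139 bases before the RUNX string in 40 of 63 peaks. In RLTR30D2_MM the GATA string lay 22 bases before it in 11 of 15. The RUNX string followed by 1 base and a STAT string occurred at 605 places in mm10. Phase 1 RUNX1 peaks covered 155 of these (25.6%), 134 of them in LTR peaks, 112 in RLTR45 and 14 in RLTR48A. LP RUNX1 peaks covered 130, and CTCF peaks 4 in LP and 3 in Phase 1. How many of the 605 places lie in LTRs or in RLTR45 was not counted, so these counts do not show a preference for such copies.

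RLTR45 peaks with both strings were the stronger ones. In Phase 1 their median RUNX1 score was 59.0 (n = 103), against 36.1 with the RUNX string alone (n = 91). It was 33.1 without the RUNX string (n = 86), a set that includes peaks with a STAT string. Phase 1-specific peaks made up 15.5%, 35.2% and 27.9% of the 3 sets. In LP all 73 peaks with both strings lay under a p300 peak, and in Phase 1 82 of 103 (79.6%) did. With the RUNX string alone the p300 share was 85.1% in LP and 59.3% in Phase 1. The lower p300 share in Phase 1 thus appeared in RLTR45 peaks of every string class.

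The overlap of RUNX1 LTR peaks with Med12 and p300 in LP did not pass the test against other intronic and intergenic RUNX1 peaks. Med12 overlapped 1742 of 2157 (80.8%) against 80.5% (odds ratio 1.02, interval 0.907 to 1.14, adjusted p = 0.873, Fisher's exact test). p300 overlapped 1913 of 2157 (88.7%) against 88.9% (odds ratio 0.978, interval 0.849 to 1.13, adjusted p = 0.851, Fisher's exact test). Other comparison peaks gave calls in both directions. Against all other peaks the odds ratio was 0.743 for Med12 and 0.776 for p300, and against other repeats 1.27 and 1.38, all past the threshold. For Med12 it was also 0.866 among peaks with at least 90% unique words (adjusted p = 0.0442, Fisher's exact test) and 1.15 over classes of score (Mantel-Haenszel test, past the threshold). In Phase 1 Med12 overlapped 84.3% against 84.2% (odds ratio 1.01, adjusted p = 0.937, Fisher's exact test), but p300 overlapped 2500 of 3015 (82.9%) against 86.8% (odds ratio 0.740, interval 0.669 to 0.820, adjusted p = 5.64e-08, Fisher's exact test). The p300 odds ratio of Phase 1 was 0.757 times that of LP (adjusted p = 0.00548 over 3 such ratios, Zelen's exact test). Peaks present in both stages enter both odds ratios, so this test treats as separate what is partly the same peaks. Without RLTR45 the ratio was 0.860 (p = 0.109, Zelen's exact test), and among peaks with at least 90% unique words it was 0.877 (p = 0.185, Zelen's exact test), so the difference between stages no longer passed. The lower p300 overlap in Phase 1 itself remained without RLTR45 (odds ratio 0.811, adjusted p = 0.000709, Fisher's exact test). MTD showed 98 of 113 RUNX1 peaks with p300 in LP and 143 of 196 in Phase 1, and ORR1E 200 of 224 and 223 of 270.

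**Figure D5:**
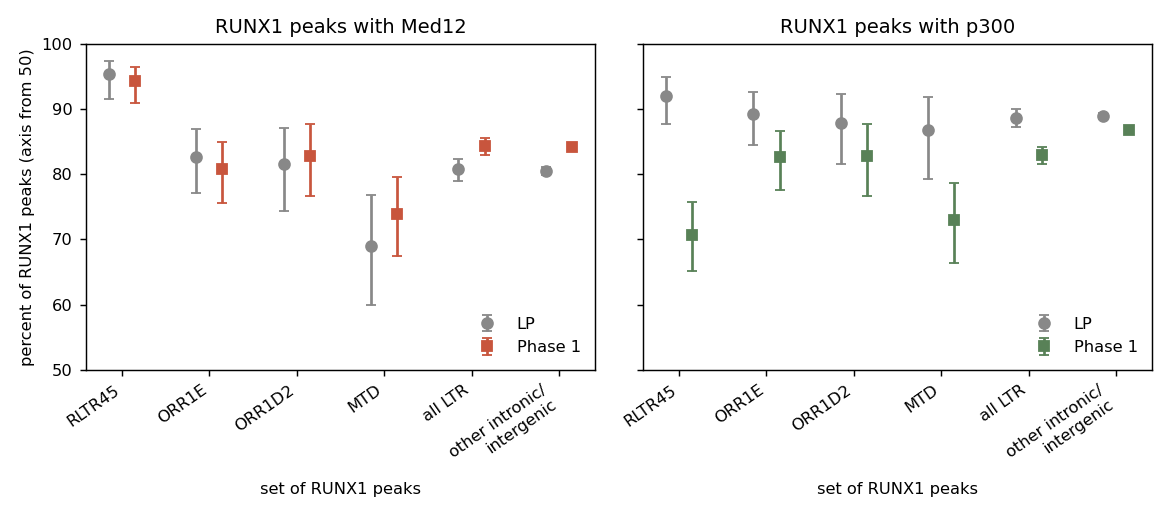
Share of RUNX1 peaks (y axis, percent, starting at 50%) that a Med12 peak (left) or a p300 peak (right) of the same stage overlaps, for 4 elements, all LTR peaks and the other intronic and intergenic peaks, with 95% Wilson intervals as bars. The p300 share of RLTR45 was 92.1% in LP and 70.7% in Phase 1, while its Med12 share stayed at 95.3% and 94.3%.

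CTCF met fewer RUNX1 LTR peaks than other RUNX1 peaks, 220 of 2157 (10.2%) against 20.7% in LP and 207 of 3015 (6.87%) against 12.3% in Phase 1. Notch1 overlapped 105 LP RUNX1 LTR peaks (4.87%, against 6.02% of the others) and 12 in Phase 1 (0.398%, against 0.344%). Its lists held 1585 peaks in LP and 152 in Phase 1, so the counts of the 2 stages are not comparable.

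The lists from guide-transduced cells were not used to choose the LTR peaks above. In Phase 1 cells that received the control guide (sgCont), Med12 had 851 LTR peaks, of which 346 (40.7%) lay under a Med12 peak in cells with a guide against Cbfb, which encodes the partner of RUNX1. Of the other intronic and intergenic sgCont peaks 48.9% did so, and of all sgCont peaks 67.8%. The odds ratio was 0.716 (0.621 to 0.826, adjusted p = 9.79e-06, Fisher's exact test). Compared with other repeats it was 0.927 and no longer past the threshold. RLTR45 was above the LTR share at 56 of 86 (65.1%), whereas ORR1E had 31 of 85 (36.5%), ORR1D2 18 of 54 (33.3%) and MTD 16 of 46 (34.8%). The limit of sequence uniqueness given above for RLTR45 applies here too. The paper states that ChIP-seq of the deficient cells was done on few cells and was noisier than usual. The sgCont Med12 list held 19053 peaks, against 39132 in the Phase 1 Med12 list. The RUNX1 lists with guides against Ctcf in LP and Med12 in Phase 1 held too few LTR peaks, 25 and 90 in the control lists, to compare elements.

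Single peaks of note by score included a shared RUNX1 peak in an RLTR11A copy (chr5:120775636-120775964) in an intron of Oas3, an antiviral gene. Its RUNX1 scores, 432.4 in LP and 620.5 in Phase 1, were the highest of the LTR peaks in both RUNX1 lists. An ORR1D2 copy in an intron of Itsn1 (chr16:91789746-91790074) had 425.6 and 414.8. The highest LP-specific RUNX1 peak was in MLT2D (chr10:80751502-80751842), 3531 bases upstream of Dot1l, a histone methyltransferase gene, and its Med12 and p300 peaks were present in both stages. The highest Phase 1-specific peak was in MRLTR33 (chr3:95925166-95925494), 3927 bases upstream of Anp32e, where p300 already had a score of 132.7 in LP and 733.7 in Phase 1. A MER88 copy 46112 bases upstream of Car8 had RUNX1 and Med12 in Phase 1 alone and p300 in both.

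Genes of the T-lineage list drew LTR peaks at 17 of 41 genes and 29 loci, of which 12 were in all 6 lists, 6 in Phase 1 lists alone (20.7%) and 3 in LP lists alone (10.3%). Over all 5202 loci 29.1% were in all 6 lists, 38.4% in Phase 1 lists alone and 9.88% in LP lists alone. The share of all genes with an LTR locus was not counted. The gene counts of this list and of those below therefore have no background to be read against. At Cd3e, a subunit of the T cell receptor complex, an LTR16A copy 1975 bases upstream (chr9:45011389-45011755) had peaks in Phase 1 alone, with scores of 25.9 for RUNX1, 40.6 for Med12 and 68.9 for p300. At Thy1, a surface marker of T cells, 5 loci lay upstream. The one nearest to the gene, MER74A at 12024 bases, had a RUNX1 score of 46.1 in LP and 118.5 in Phase 1. Another, RMER15-int at 39034 bases, had 41.9 and 30.8, with p300 scores of 95.7 and 49.1. At Zap70, a kinase of T cell receptor signaling, an ORR1F copy in an intron of Tmem131 had 57.4 and 24.8. At Tox, a nuclear factor of T cell development, a MER21B copy 161453 bases upstream had 18.5 and 135.3, with Med12 in Phase 1 alone. At Runx3 an MLT1G3 copy had 51.2 and 22.3, with p300 in LP alone. Scores are given side by side and were not compared between lists.

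Genes of progenitors and myeloid cells had 5 loci at 5 of 25 genes, 4 of them in all 6 lists and 1 in Phase 1 alone. At Erg, an ETS factor of stem cells, an ORR1E copy 54325 bases upstream had RUNX1 scores of 34.2 in LP and 97.9 in Phase 1 and p300 scores of 52.6 and 122.5. The B-lineage list had 4 loci at Foxo1 and Igll1 of 10 genes. At Foxo1 an ORR1D2 copy 80716 bases upstream had RUNX1 scores of 96.9 in LP and 27.2 in Phase 1 and p300 scores of 131.6 and 32.0, and CTCF also had a peak there in both stages.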

How the data were processed

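RUNX1, Med12 and p300 ChIP-seq peaks of Cas9-LP cells were taken from lists that the authors deposited, 1 per factor and stage, each combining 2 replicates by reproducibility (IDR) after calling with HOMER. Per the submitters' processing notes, reads were made with bcl2fastq 1.8.4 and aligned to mm10 with Bowtie 1.1.1; reads with a few genomic places were kept and those with more were discarded. The authors gave each peak a normalized score of at least 15, the unit of which is not stated, and a repeat annotation. Replicate values, inputs and library depth were not analysed here, so intervals cover counting error only. Peaks with |LTR| in the annotation were selected from 6 of 17 lists read. Stage-specific peaks had no overlap (1 base) with the other stage. Fisher's exact tests (two-sided) were adjusted by Benjamini-Hochberg over 16 tests with a threshold of 0.05. Intervals of shares are Wilson intervals at 95%. Those of odds ratios are normal-approximation intervals at 95% on the log scale. Odds ratios of the stages were compared by Zelen's exact test, added after seeing the data. Strings were searched on both strands of mm10 in 200 bases around the peak centre, and 50-base words were counted in mm10. Nearest genes were matched to RefSeq symbols for 4698 of 4712 transcript IDs.

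Elements were named when they had at least 30 RUNX1 peaks over both lists, single peaks by highest score in each class, and genes from 3 lists. Members, elements and lists were chosen with earlier results of these data known. Python 3.11.15, numpy 2.4.6, pandas 2.3.3, numba 0.67.0, scipy 1.17.1 and matplotlib 3.10.9 were used, and functions were tested on simulated data. Alternatives covered the score minimum, the comparison peaks, score classes, sequence uniqueness, overlap width, list length, window and, added after seeing the data, RLTR45.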

Additional observations from a re-analysis of the deposited data

Results flagged for a closer look

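The p300 overlap of RUNX1 peaks differed between stages in LTRs beyond its difference elsewhere. The odds ratio of LTR against other intronic and intergenic peaks was 0.978 in LP and 0.740 in Phase 1, a ratio of 0.757 (p = 0.00183, adjusted p = 0.00548 over 3 ratios, Zelen's exact test). The same ratio was 0.959 for the RUNX string (p = 0.515) and 0.991 for Med12 overlap (p = 0.938, Zelen's exact test). By the same exact test it was 0.860 without RLTR45 peaks (p = 0.109), 0.877 among peaks with at least 90% unique 50-base words (p = 0.185) and 0.619 against other repeats (p = 6.30e-05). Peaks called in both stages are counted in both odds ratios, which the test treats as separate. Sequence uniqueness moved with this result, and its part in it was not tested.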

How the results depend on the processing

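Of 115 alternatives over the 16 comparisons, 71 kept the direction and the side of the threshold. No paired analysis was possible because each list joins its replicates, and for the same reason leaving out a replicate was not possible. Odds ratios that changed are given here, and the cause was not tested.

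With a score minimum of 30 the LP-specific share was 1.04 for p300, the Med12 overlap in LP 0.937, the Phase 1-specific share of Med12 1.08 and the Med12 family comparison 1.21. Against all other peaks the LP-specific shares were 0.994 (Med12), 0.954 (RUNX1) and 1.14 (p300), the Phase 1-specific shares 1.45 (Med12), 1.51 (RUNX1) and 1.19 (p300), the Med12 overlaps 0.743 (LP) and 0.861 (Phase 1) and the LP p300 overlap 0.776. Against other repeats the Med12 overlaps were 1.27 and 1.21, the LP p300 overlap 1.38, the Phase 1-specific shares 0.665 (Med12) and 0.742 (RUNX1), the RUNX string 1.07 (LP) and 1.09 (Phase 1) and the sgCbfb recovery 0.927. Over 5 score classes the LP Med12 overlap was 1.15, the LP p300 overlap 1.07, and the Phase 1-specific shares 0.847 (Med12) and 0.930 (RUNX1). With at least 90% unique words the LP-specific shares were 0.871 (Med12) and 0.903 (p300), the Med12 overlaps 0.866 and 0.896, the Phase 1-specific share of Med12 1.07 and the family comparisons 0.823 (RUNX1), 0.813 (Med12) and 0.801 (p300). With equal list length the LP-specific shares were 0.931 (Med12) and 1.07 (p300), the Phase 1-specific share of RUNX1 0.971 and the Med12 family comparison 1.28. Overlap of at least 50% of the width gave 1.00 for the LP p300 overlap. Without RLTR45, added after seeing the data, the Med12 overlaps were 0.918 and 0.933, the Phase 1-specific share of Med12 1.07 and the family comparisons 0.864 (RUNX1), 0.864 (Med12) and 0.945 (p300).

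The lists do not give the reads behind a peak, so a list without a peak is not evidence of no binding there.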
